A study of Mus musculus with 36 samples.

Results

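CD11c-negative microglia of the cortex were compared between amyloid-depositing mice, called APP here, and wild-type (WT) controls. The comparison took every library whose title names cortex and the CD11c-negative gate, and summed libraries by the animal number in the title. This gave 11 of the 36 libraries of the series, 844 of its 2657 cells and 8 of its 23 replicate sums. The APP side held 4 animals with 454 cells (151, 150, 79 and 74), against 4 WT animals with 390 cells (155, 79, 80 and 76). All mice were males sampled at 6 months. APP mice carry transgenes that make them deposit amyloid, APPswe among them, driven in this strain by a mouse prion protein (Prnp) promoter, and WT mice carry none. Per the labels' protocols, tissue was dissociated mechanically in the cold and living cells were sorted as CD11b-high, CD45-intermediate and CD11c-negative. CD11c-positive APP cells of the same cortices and CD11c-negative cells of hippocampus serve below only as points of reference. The series' labels put no CD11c-positive WT cells in any group.

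Microglia are the resident macrophages of the brain. In the healthy brain they carry a homeostatic program, with the ADP receptor P2ry12, Tmem119 and the growth factor receptor Csf1r, that is kept up by TGF-beta signalling. Around amyloid plaques a subset takes on a disease-associated state, in which Apoe, Lpl, Cst7, Clec7a and Itgax, the gene of CD11c, are high and homeostatic genes are low. The CD11c-negative gate leaves out cells with CD11c at the surface, so the comparison asks whether the remaining cortical microglia of APP mice differ from those of WT mice.

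APP animals held 1037425 to 4406184 counts and WT animals 1570266 to 3707275 counts. Median counts per cell were 18108 in APP and 20317 in WT cells, and median detected genes were 652 and 742. Values per gene are CPM (counts relative to the library total, adjusted with TMM factors), and summed levels of gene lists are CPM of the raw total without TMM. The 11 libraries used largely one set of well barcodes, with 69 to 79 shared between any pair, and no library or cell profile was a copy of another. Libraries of the same animal correlated at r = 0.868 to 0.915 over 337 well expressed genes. Median r was 0.864 between animals of one genotype and 0.867 between genotypes. A first number in the titles, perhaps a library set, is 3 to 6 in APP and 1 or 2 in WT cortex, so that set and genotype cannot be told apart. The genotype tag of the labels goes against the title in 6 of the 11 libraries (APP animals 1 and 2, WT animals 2 and 3), and the titles were used. The libraries of APP animals 3 and 4, 1 of 2 libraries of APP animal 2 and those of WT animals 3 and 4 have an S number in the title that a CD11c-positive library also has, and the other libraries have none. The sources used here do not say what the S number means, and its part in low counts of genes that are high in CD11c-positive cells was not tested.

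The sorted cells carried the transcripts of microglia. Cst3, which encodes cystatin C, stood at 7850.5, 8009, 6825 and 8168 CPM in APP animals 1 to 4, against 8509.5, 6859.5, 6484 and 6869 CPM in WT animals 1 to 4. The groups overlapped. Among markers of 10 other cell types edgeR called 0 genes and DESeq2 called 1, the haemoglobin gene Hbb-bs, with 481 counts in APP and 0 in WT cells. The summed levels of the 10 lists overlapped between the genotypes. Neuronal markers summed to 644 to 1249 CPM in APP animals and 521 to 2074 CPM in WT animals, and astrocytic markers to 424 to 1393 CPM in APP animals and 468 to 2099 CPM in WT animals. Oligodendrocyte lineage markers summed to 179 to 274 CPM in APP animals and 235 to 446 CPM in WT animals, and vascular markers to 37.6 to 110.5 CPM in APP animals and 5.39 to 73.6 CPM in WT animals. Markers of lymphocytes, dendritic cells, monocytes and border-associated macrophages stayed at or below 88.7 CPM in APP and 55.7 CPM in WT animals. Neutrophil markers summed to 45.3 to 168 CPM in APP animals and 91.1 to 194 CPM in WT animals, all from Csf3r. Averaged over cells, markers of the 10 types together made up 0.180 ± 0.0541% of counts in APP and 0.204 ± 0.0754% in WT animals (SD, n = 4 each). S100a8 (neutrophils), Cbr2 and Ms4a7 (border-associated macrophages) and Pdgfrb (mural cells) had 0 counts in both groups. Haemoglobin and other red cell genes reached 280 CPM in APP animal 2 and 65.5 CPM in WT animal 3 and were near 0 elsewhere.

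Itgax (chromosome 7, 128129547 to 128150657 on GRCm38) followed the gate. It had 6 counts in 5 of 454 APP cells and no count in 390 WT cells. Were cells independent, this would allow up to 0.769% of WT cells with a count. That limit leaves out the spread between animals and sets none on cells that express the gene. The counts lay in APP animals 3 and 4, whose libraries share an S number with a CD11c-positive library, and no cell held more than 2. In CD11c-positive APP cortex it stood at 159 ± 50.5 CPM and was counted in 17.2% of cells. Prnp (chromosome 2, 131909928 to 131938429), the gene that lends the transgenes their promoter, stood at 140.1, 107, 144 and 234 CPM in APP animals 1 to 4, against 13.98, 75.8, 35.1 and 79.2 CPM in WT animals 1 to 4. All 4 APP animals lay above all 4 WT animals. Prnp counts were found in 43 of 454 APP cells and 12 of 390 WT cells. The log2 fold change, here always APP over WT, was 1.62 ± 0.93 and did not pass (edgeR adjusted p = 0.708). In hippocampus Prnp averaged 31.7 ± 38.0 CPM in APP and 0.423 ± 0.845 CPM in WT animals. Whether some reads counted as Prnp came from the transgenes was not tested, so these values may not measure the mouse gene alone. Endogenous App (chromosome 16, 84949685 to 85173766), the mouse gene of the amyloid precursor protein, stood at 72.6, 26.4, 65.9 and 332 CPM in APP animals 1 to 4, against 138, 227, 47.3 and 156 CPM in WT animals 1 to 4. The groups overlapped, with the highest value in APP animal 4. Counts matched to the mouse gene are no measure of a human or chimaeric transgene, and how such reads were assigned was not stated in the sources used here.

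No gene passed the test in this comparison. Of 14892 genes, 0 had an adjusted p under 0.05 in edgeR's quasi-likelihood test after Benjamini-Hochberg adjustment (0.0% of genes tested), and the smallest adjusted p was 0.402. At an unadjusted p under 0.05 there were 1354 genes (9.09%), 680 higher and 674 lower in APP animals. Other tools made calls. DESeq2 called 245 genes (1.65%, 125 higher and 120 lower) and limma voom 19 (0.128%, 10 higher and 9 lower), of which 8 were shared. Most DESeq2 calls rested on very few cells: 172 of 245 were counted in 5 cells or fewer over both groups, and 191 had no count in one of the groups. In 173 of them 1 cell held 50% or more of the counts of the higher group. Of 4145 genes at 50 CPM or more in a group, 152 (3.67%) had animals that did not overlap between genotypes, 95 with APP above WT and 57 with APP below.

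Precision depended on the level of the gene. Among the 337 genes at 500 CPM or more, log2 fold changes ran from -0.69 to 0.72 with a median standard error of 0.22. The 95% interval lay within a 2-fold change for 307 of them and within a 1.5-fold change for 134. Their median was 0.16 and 256 were positive, a shift that was 0.10 with DESeq2's size factors in the same fit, 0.03 over mean CPM per cell and -0.12 when cells with at least 5 counts were counted. Between 50 and 500 CPM (3137 genes) the median standard error was 0.68, and below 50 CPM (11418 genes) it was 1.87. Differences of less than several-fold were therefore not detectable for most genes below 50 CPM with these animals and counts.

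**Figure D1:**
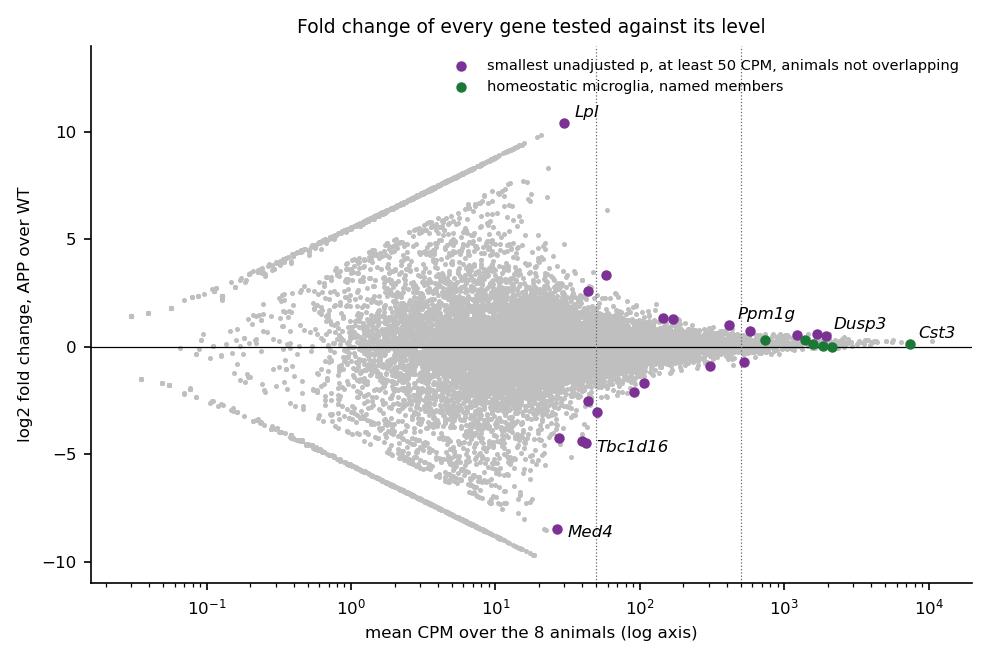
Each point is a tested gene with a count in these 8 animals, with its mean CPM on a log axis and the log2 fold change of APP over WT animals on the vertical axis. The cloud is narrow to the right of 500 CPM, where values lie between -0.69 and 0.72, and wide to the left of 50 CPM. The straight outer lines are genes with no count in one group, whose fitted size is no measure of the fold. Purple points are the 20 genes of smallest unadjusted p at 50 CPM or more with animals that do not overlap, green points named homeostatic genes, and dotted lines mark 50 and 500 CPM.

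Homeostatic genes kept close levels in both genotypes where counts were high. Of 28 listed genes, 0 were called, 0 had an unadjusted p under 0.05, and the median log2 fold change was 0.10, against 0.00 over all genes tested and 0.16 over genes at 500 CPM or more. All 14 members at 500 CPM or more had a 95% interval within a 2-fold change. The summed level was 24692 to 27863 CPM in APP animals and 22941 to 29914 CPM in WT animals. P2ry12, which senses ADP and steers the processes of microglia, stood at 1767, 1506, 2158 and 2018 CPM in APP animals 1 to 4, against 2237, 1658, 1951 and 1473 CPM in WT animals 1 to 4. The groups overlapped, and the log2 fold change of 0.03 ± 0.15 had an interval of -0.29 to 0.34. Tmem119, a transmembrane marker of resident microglia, stood at 1747, 1880.5, 1654 and 1369.6 CPM in APP animals 1 to 4, against 1672, 1366, 1812 and 1225 CPM in WT animals 1 to 4. Its animals also overlapped, with a log2 fold change of 0.13 ± 0.14 and an interval of -0.17 to 0.43. Csf1r, the receptor for the survival factors CSF1 and IL-34, stood at 1658, 1752, 1465 and 1274 CPM in APP animals 1 to 4, against 1796, 911, 1228 and 1008 CPM in WT animals 1 to 4. WT animal 1 was the highest of all 8, and the interval was -0.06 to 0.69. Selplg, the P-selectin ligand, had an interval of -0.23 to 0.21, and Cst3 one of -0.06 to 0.27. The receptor gene Tgfbr1 stood at 813 ± 124 CPM in APP and 647 ± 128 CPM in WT animals (SD, n = 4 each), with a log2 fold change of 0.33 ± 0.21 that did not pass (edgeR adjusted p = 0.79).

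Disease-associated genes with a low baseline had overlapping summed levels in the 2 genotypes, while Lpl had counts in APP animals only. Of 17 tested members of this list 0 were called. At an unadjusted p under 0.05 were 4, all higher in APP, and DESeq2 called 1, beside 9.09 and 1.65% of all genes tested. The median log2 fold change of the list was 0.60, or 0.27 with the 3 members that had no count in one group set at their bound. The summed level was 772 to 1366 CPM in APP animals and 829 to 1315 CPM in WT animals, and Serpine2, a protease inhibitor, made up much of it with 567 ± 232 CPM in APP and 589 ± 189.7 CPM in WT animals. Serpine2 had a log2 fold change of -0.05 ± 0.23. Cadm1, an adhesion molecule, stood at 131, 144, 255 and 195 CPM in APP animals 1 to 4, against 349.6, 351, 353 and 251 CPM in WT animals 1 to 4. WT animal 4 was the only WT animal within the APP range. The chemokine gene Ccl6 averaged 152 ± 65.6 CPM in APP and 100.3 ± 73.4 CPM in WT animals, and the receptor gene Axl had counts in 2 APP animals and 1 WT animal.

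Lpl (chromosome 8, 68880491 to 68907448), which encodes lipoprotein lipase, was the gene with the smallest p. It stood at 97.5, 102, 19.9 and 18.3 CPM in APP animals 1 to 4, against 0, 0, 0 and 0 CPM in WT animals 1 to 4. Every APP animal had counts and no WT animal did. The 797 counts lay in 32 APP cells: 6 of 151, 6 of 150, 8 of 79 and 12 of 74 in animals 1 to 4. In these cells the median was 38, 1, 1.5 and 1.5 counts and the highest cell held 166, 312, 31 and 2 counts in animals 1 to 4. In libraries with no S number of a CD11c-positive library, APP animal 1 had 309 counts in 6 cells and APP animal 2 had 425 counts in 5 cells. The libraries that share such a number had 1 count in APP animal 2, 44 in animal 3 and 18 in animal 4, and 0 in WT animals 3 and 4, so that in APP animals 3 and 4 Lpl was seen in such libraries alone. One cell of animal 2 held 39.1% of all counts. Were cells independent, the 0 of 390 WT cells would allow up to 0.769% of cells with a count. That limit leaves out the spread between animals and sets none on cells that express Lpl. Against 3 counts over the WT group the mean of the APP animals was 199-fold higher and the lowest APP animal 61.4-fold. These folds take counts as independent and leave out the spread between animals. Lpl counts lay together in few cells, so they are no lower bounds. The difference did not pass the main test (unadjusted p = 2.7e-05, edgeR adjusted p = 0.402). It passed with DESeq2 (adjusted p = 5.3e-07), limma voom (0.00657), mean CPM per cell (0.0446) and edgeR without a gene filter (2.47e-06). In the other alternatives adjusted p was 0.191 to 1, with the tagged genotype not examined for single genes. Without APP animal 2 the edgeR adjusted p was 0.462.

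Most APP cells with Lpl also had P2ry12. Of these 32 cells, 7 held at least 5 counts of 2 or more other low-baseline genes, 12 held at least 5 Apoe counts, 18 had Tmem119 and 25 had P2ry12. Of the 422 APP cells without Lpl these numbers were 17, 56, 298 and 316. Median counts per cell were 18929 with Lpl and 17814 without. In CD11c-positive APP cortex Lpl stood at 657 ± 135 CPM and was counted in 44.1% of cells. In hippocampus it averaged 4.91 ± 6.46 CPM in APP and 19.0 ± 35.7 CPM in WT animals, with counts in 8 of 426 and 15 of 438 cells.

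Cst7 and Clec7a, which also define the state, were added after their values had been seen. Cst7, a cystatin that inhibits cathepsins, stood at 0.316, 0, 4.06 and 35.7 CPM in APP animals 1 to 4, against 13.98, 0, 40.2 and 0.609 CPM in WT animals 1 to 4. APP animal 4 and WT animal 3 were highest, and the groups overlapped. In WT animal 3 its 102 counts lay in 3 cells, 1 of them with 100, whereas APP animal 4 had 35 counts in 22 cells, none above 5. APP animal 3 had 9 counts in 8 cells, and both of these animals have only libraries that share an S number with a CD11c-positive library. Clec7a, the receptor dectin-1, stood at 23.03, 0, 0.902 and 5.1 CPM in APP animals 1 to 4, against 44.8, 0, 0 and 0 CPM in WT animals 1 to 4. WT animal 1 held the highest value. In CD11c-positive APP cortex Cst7 stood at 1029 ± 65.4 CPM and Clec7a at 219.8 ± 77.4 CPM.

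Cells that carried several low-baseline genes at once were rare in both genotypes. With at least 5 counts for each gene, 7 of 454 APP cells held 3 or more of them (5, 1, 1 and 0 cells in animals 1 to 4), against 4 of 390 WT cells (2, 1, 0 and 1 cells). With 2 or more genes the shares were 1.35 to 12.7% in APP and 5.26 to 12.7% in WT animals. In CD11c-positive APP cortex 59.7 to 82.3% of the cells of an animal held 3 or more. These cell counts were looked up after the first results and carry no test.

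**Figure D2:**
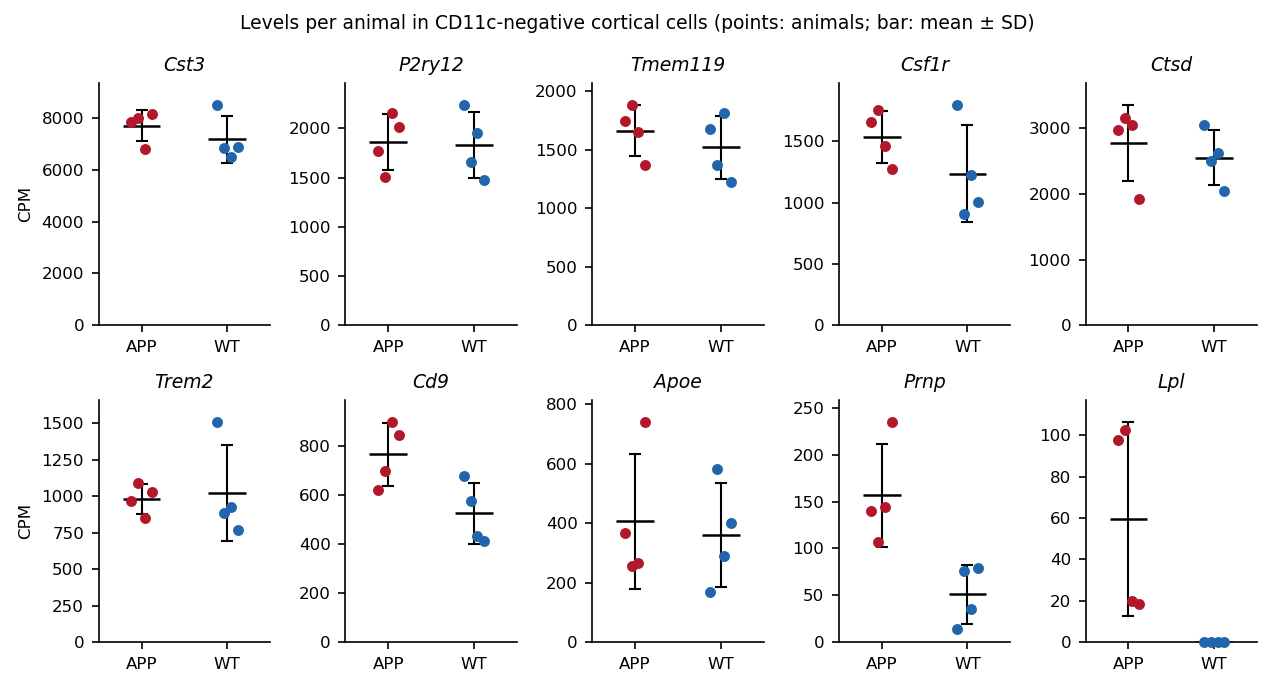
Levels of 10 genes in CPM on the vertical axes, with APP animals on the left and WT animals on the right of each panel (points: animals, bars: mean ± SD, n = 4 each). The groups overlap for each gene except Prnp, at 107 to 234 CPM in APP and 13.98 to 79.2 CPM in WT animals, and Lpl, at 18.3 to 102 CPM in APP animals and 0 in WT animals.

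Early and lysosomal genes of the disease-associated program had close levels in both genotypes where counts were high. Of 20 genes, 0 were called, 16 had a positive log2 fold change and 1 had an unadjusted p under 0.05, beside 9.09% of all genes tested. The median was 0.15, close to the 0.16 of all genes at 500 CPM or more. The 9 members at that level all had intervals within a 2-fold change. The cathepsin genes Ctsd, Ctsb and Ctsz, which encode lysosomal proteases, had intervals of -0.16 to 0.41, -0.24 to 0.46 and -0.26 to 0.38. Ctsd stood at 2977, 3164, 3061 and 1923 CPM in APP animals 1 to 4, against 3054, 2500.1, 2620.3 and 2041 CPM in WT animals 1 to 4. The groups overlapped and APP animal 4 was the lowest of all 8. B2m, the light chain of MHC class I, had a log2 fold change of 0.06 ± 0.15.

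Cd9, a tetraspanin, had the smallest p of this list. It stood at 619, 698, 896 and 845 CPM in APP animals 1 to 4, against 677, 576, 435 and 411 CPM in WT animals 1 to 4. Only WT animal 1 lay within the APP range, and its log2 fold change of 0.54 ± 0.17 did not pass (unadjusted p = 0.004, edgeR adjusted p = 0.519). It was counted in 191 of 454 APP cells and 165 of 390 WT cells, nearly the same share. Cd63, another tetraspanin, stood at 535, 480.1, 447 and 739 CPM in APP animals 1 to 4, against 525, 488, 420.0 and 272 CPM in WT animals 1 to 4. APP animal 4 was highest and WT animal 4 lowest, and the log2 fold change was 0.37 ± 0.20 (edgeR adjusted p = 0.635).

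Apoe (chromosome 7, 19696109 to 19699188) encodes apolipoprotein E, a carrier of lipids, and stood at 368, 258, 266 and 739.8 CPM in APP animals 1 to 4, against 170.3, 584, 289.6 and 402 CPM in WT animals 1 to 4. The groups overlapped, and the log2 fold change was 0.17 ± 0.49 with an interval of -0.83 to 1.18. The share of cells with any Apoe count was 24.5, 20, 68.4 and 70.3% in APP animals 1 to 4, against 11.6, 38.0, 26.2 and 22.4% in WT animals. With 5 or more counts it was 12.6, 5.33, 22.8 and 31.1% in APP animals 1 to 4, against 7.74, 20.3, 6.25 and 10.5% in WT animals. APP animals 3 and 4 lay above every WT animal at both limits. With 20 or more counts the shares were 9.27, 4.67, 10.1 and 6.76% in APP and 5.81, 16.5, 6.25 and 7.89% in WT animals, and no APP animal lay above the WT range. With each cell thinned to 5000 counts, the share was 32.7 ± 24.9% in APP and 14.7 ± 8.15% in WT animals, which did not differ beyond the spread (exact two-sided permutation test over 8 animals, p = 0.2, Benjamini-Hochberg adjusted p = 0.8 over 4 cell measures). This thinning left out 14 APP and 6 WT cells with fewer counts.

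No sorted cell type that lacks Apoe is at hand to measure its background, and in CD11c-positive APP cortex 99.3% of cells had Apoe, at 4666 ± 463 CPM. APP animals 3 and 4, like WT animals 3 and 4, have only libraries that share an S number with a CD11c-positive library. In APP animal 2 the library with such a number had Apoe in 20 of 78 cells and the one without it in 10 of 72 cells.

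**Figure D3:**
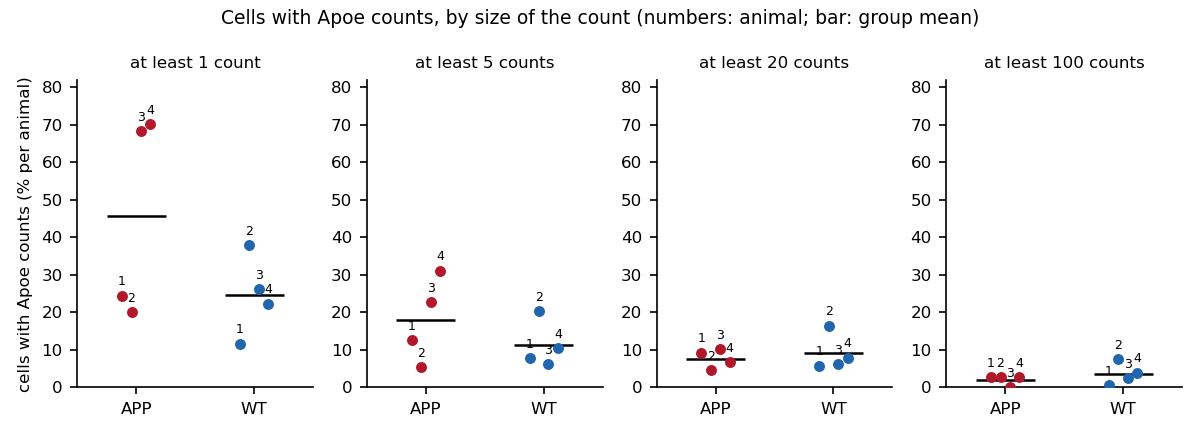
Percent of cells per animal with at least 1, 5, 20 or 100 Apoe counts (panels, APP left and WT right of each, numbers give the animal and bars the group mean). APP animals 3 and 4 lie at 68.4 and 70.3% for at least 1 count and at 22.8 and 31.1% for at least 5, above every WT animal, and at 20 or more counts APP animals (4.67 to 10.1%) and WT animals (5.81 to 16.5%) overlap.

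Transcripts of immune activation were low and uneven between animals. In the interferon response list, 6 of 21 tested genes had an unadjusted p under 0.05, all higher in APP, 0 were called and DESeq2 called 5, beside 9.09 and 1.65% of all genes tested. The median log2 fold change was 0.51, or 2.30 when the 4 genes with at most 3 counts in either group were left out and those with no count in one group were set at their bound. The summed level was 299 to 572 CPM in APP animals and 206 to 339 CPM in WT animals, so the groups overlapped. Ifitm3, an interferon-induced membrane protein that restricts viral entry, stood at 55.8, 42.3, 0 and 4.08 CPM in APP animals 1 to 4, against 0, 0, 0 and 0 CPM in WT animals 1 to 4. APP animals 1 and 2 held nearly all of its counts, which lay in 5 cells. Ifi27l2a, another interferon-stimulated gene, stood at 17.7, 32.9, 0.451 and 1.02 CPM in APP animals 1 to 4, against 0, 0.436, 0 and 0 CPM in WT animals 1 to 4. Every APP animal lay above every WT animal, but APP animals 3 and 4 and WT animal 2 held 1 count each, so that their order follows their total counts. Irf9, a transcription factor of the pathway, overlapped between the genotypes, with 81.3 ± 18.98 CPM in APP and 57.3 ± 48.1 CPM in WT animals (SD, n = 4 each). Bst2, which encodes tetherin, had a log2 fold change of 0.04 ± 1.07.

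Antigen presentation genes showed no called difference. Of 13 MHC class I genes 0 were called and the median was 0.06, with a summed level of 3825 to 4412 CPM in APP animals and 3468 to 4888 CPM in WT animals. Of 8 tested MHC class II genes 0 were called and 2 had an unadjusted p under 0.05, both higher in APP, beside 9.09% of all genes tested. In that list 7 of 8 log2 fold changes were positive with a median of 1.17, and the summed level, mostly Ctss, was 2808 to 4119.8 CPM in APP animals and 2028 to 3222 CPM in WT animals. H2-Ab1, a class II beta chain, stood at 27.8, 51.4, 30.7 and 299.6 CPM in APP animals 1 to 4, against 5.31, 0, 101 and 1.83 CPM in WT animals 1 to 4. APP animal 4 was far above the other 7. H2-Eb1 had 109 counts, all in 1 cell of APP animal 4, and none elsewhere. Ctss, the cathepsin that trims the class II invariant chain, stood at 2679, 2691, 2631 and 3305 CPM in APP animals 1 to 4, against 2841, 2329.7, 1933 and 1805 CPM in WT animals 1 to 4. Of the APP animals, number 4 lay above the WT range and the others within it, and the log2 fold change was 0.34 ± 0.12 (edgeR adjusted p = 0.519).

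Complement and phagocytic receptor genes were close between genotypes where counts were high. Of 11 complement genes 0 were called, with a median of 0.05. The C1q chains, which start the classical pathway, had log2 fold changes of 0.04 ± 0.24 for C1qa, 0.03 ± 0.19 for C1qb and 0.19 ± 0.12 for C1qc. C1qc stood at 3447, 3766, 3296 and 3359 CPM in APP animals 1 to 4, against 3842, 2816, 2782 and 2722 CPM in WT animals 1 to 4. WT animal 1 held the highest value and the groups overlapped. Of 19 phagocytic and pattern recognition genes 0 were called, 2 had an unadjusted p under 0.05 higher in APP and 1 lower. DESeq2 called 1, higher in APP. Over all genes tested the shares were 9.09% at that unadjusted p and 1.65% called by DESeq2. Trem2, the lipid-sensing receptor on which the disease-associated state depends, stood at 969.9, 1087, 849 and 1026 CPM in APP animals 1 to 4, against 1506, 886, 924 and 769 CPM in WT animals 1 to 4. WT animal 1 was highest, and the interval of -0.41 to 0.30 lay within a 1.5-fold change. The Fc receptor gene Fcgr3 stood at 305, 415, 339 and 349.5 CPM in APP animals 1 to 4, against 579.8, 549, 621 and 314 CPM in WT animals 1 to 4. It was the lower one at unadjusted p = 0.037, with WT animal 4 within the APP range (edgeR adjusted p = 0.519).

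Cytokine, chemokine and immediate early genes gave no call. In the cytokine and chemokine list 0 of 13 tested genes were called and the summed level was 286 to 748 CPM in APP animals and 263 to 420.3 CPM in WT animals. Ccl2, a monocyte chemoattractant, stood at 15.1, 79.5, 0 and 376 CPM in APP animals 1 to 4, against 5.31, 0, 0 and 0 CPM in WT animals 1 to 4. APP animal 4 held most of it, and animal 3 had none. Nfkbia, the inhibitor and target of NF-kappaB, averaged 110.2 ± 52.4 CPM in APP and 93.9 ± 62.7 CPM in WT animals. Immediate early and dissociation stress genes, which respond to handling, summed to 1029.6 to 1408 CPM in APP animals and 1242 to 2099 CPM in WT animals, with 0 of 19 called. Btg2 and Jund, the most abundant of them, had log2 fold changes of -0.14 ± 0.41 and 0.35 ± 0.29.

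**Figure D4:**
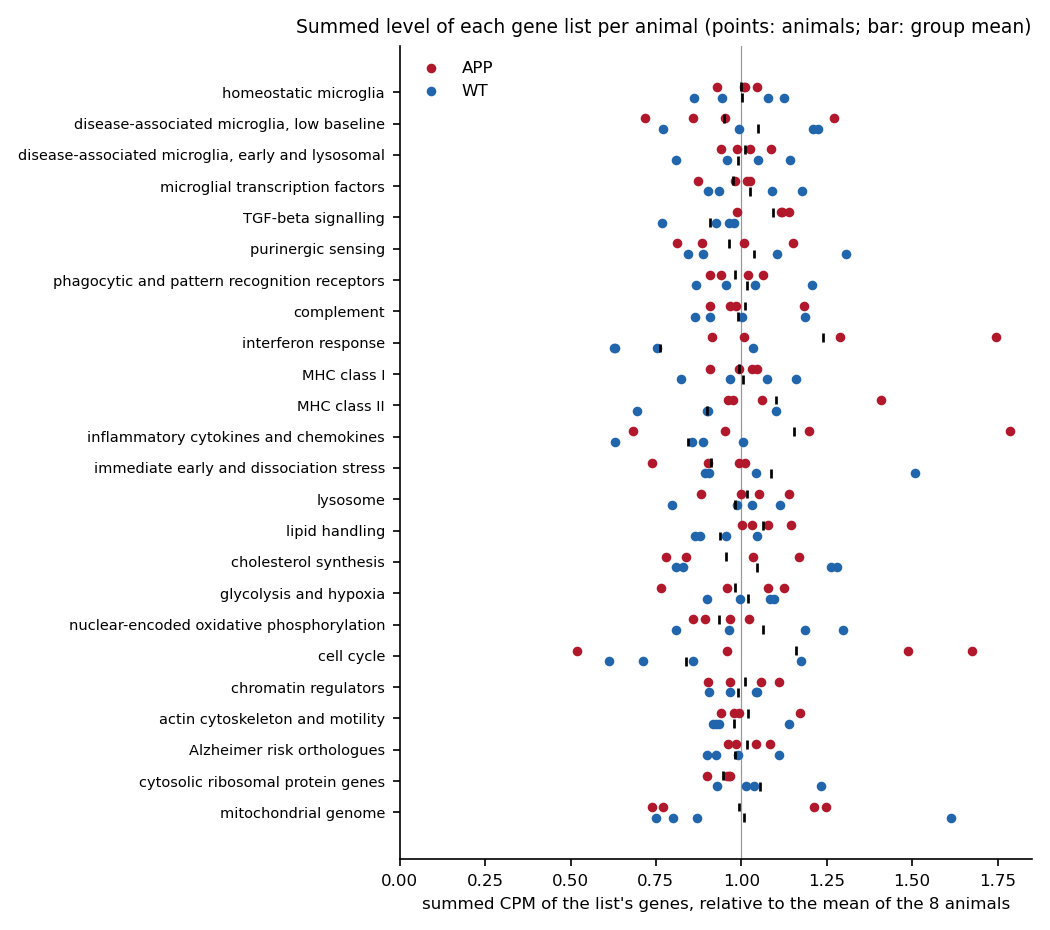
Summed level of each of 24 gene lists in every animal, divided by the mean over the 8 animals (points: animals, APP above WT in each row, bars: group means). APP and WT animals overlap in 23 lists, and for TGF-beta signalling every APP animal lies above every WT animal, at 4435 to 5116 against 3448 to 4386 CPM.

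TGF-beta signalling was the list whose summed level did not overlap between the genotypes, 1 of 24 lists. It reached 4435 to 5116 CPM in APP animals and 3448 to 4386 CPM in WT animals. This separation was not tested. An exact two-sided permutation test of 4 animals against 4 cannot give a p below 0.0286, and 24 lists were examined. Much of the summed level was Skil, with means of 2993 CPM in APP and 2210 CPM in WT animals, beside 4895 and 4077 CPM for the list. Skil values are adjusted with TMM factors and list sums are not, so their differences between genotypes cannot be compared directly. Of the 13 genes of the list 0 were called, and the median log2 fold change was 0.33. At an unadjusted p under 0.05 were 3, all higher in APP, beside 9.09% of all genes tested. No member had all APP animals above the WT animals, and 1 had them all below. Over all genes at 50 CPM or more in a group, 3.67% had animals that did not overlap. Skil, the abundant SnoN co-repressor of Smad proteins, stood at 3266, 3029.9, 2546 and 3132 CPM in APP animals 1 to 4, against 2652, 2148, 2110.5 and 1931 CPM in WT animals 1 to 4. APP animal 3 lay below WT animal 1, and the log2 fold change was 0.44 ± 0.16 (unadjusted p = 0.01, edgeR adjusted p = 0.519). The inhibitory Smad gene Smad7 averaged 200.4 ± 108 CPM in APP and 134 ± 38.95 CPM in WT animals, and Itgav, an integrin chain that helps activate TGF-beta, averaged 558 ± 117 CPM in APP and 494 ± 116 CPM in WT animals, neither past the test. Among 19 microglial transcription factors 0 were called and 14 had a negative log2 fold change, with a median of -0.17. Bhlhe41 and Maf, both high in microglia, had log2 fold changes of 0.20 ± 0.17 and -0.07 ± 0.25. Irf8, which macrophage lineages need, stood at 251, 278, 790.5 and 525 CPM in APP animals 1 to 4, against 710.1, 578, 593 and 432 CPM in WT animals 1 to 4. APP animals 1 and 2 lay below every WT animal and APP animal 3 above them. Mef2c had a log2 fold change of -0.26 ± 0.34.

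Lysosomal genes at 500 CPM or more stood at close levels. Of 31 genes 0 were called, 1 had an unadjusted p under 0.05, beside 9.09% of all genes tested, and the median was 0.09. All 12 members at 500 CPM or more had intervals within a 2-fold change. The asparaginyl protease gene Lgmn had an interval of -0.13 to 0.50, and Gm2a, an activator of ganglioside breakdown, one of -0.14 to 0.55. Laptm5, a lysosomal membrane protein of immune cells, stood at 1987, 2244, 1765 and 1783 CPM in APP animals 1 to 4, against 1694, 1567, 1721 and 1673 CPM in WT animals 1 to 4. All APP animals lay above the WT animals, by a log2 fold change of only 0.23 ± 0.11 (edgeR adjusted p = 0.551).

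Lipid handling genes gave no call in the main test. Of 17 tested genes 0 were called and the median was 0.31, or 0.27 with 4 members at their bound. At an unadjusted p under 0.05 were 3, all higher in APP and all called by DESeq2, beside 9.09 and 1.65% of all genes tested. One was Lpl. Plin2, which coats lipid droplets, stood at 24.3, 12.2, 50.98 and 1.02 CPM in APP animals 1 to 4, against 0, 0.436, 0 and 0 CPM in WT animals 1 to 4. Every APP animal lay above every WT animal, and the WT group held 1 count. APP animal 4 also held 1 count, so that its order against WT animal 2 follows their total counts. Abcg1, a cholesterol exporter and the most abundant member, stood at 3699.8, 4444, 3967 and 4606 CPM in APP animals 1 to 4, against 4458, 2844, 3318 and 2865 CPM in WT animals 1 to 4. WT animal 1 lay within the APP range, and the log2 fold change was 0.31 ± 0.16 (edgeR adjusted p = 0.577). Soat1, which esterifies cholesterol, averaged 482 ± 164 CPM in APP and 371 ± 66.1 CPM in WT animals, and the lipoprotein receptor gene Lrp1 176 ± 86.1 CPM in APP and 190.4 ± 41.6 CPM in WT animals. Of 21 cholesterol synthesis genes 0 were called and 13 had a negative log2 fold change, with a median of -0.34. Insig1, which holds back sterol synthesis and is set by cell sterol, had a log2 fold change of -0.06 ± 0.28. Scap, the sterol sensor, stood at 14.2, 23.5, 32.9 and 80.5 CPM in APP animals 1 to 4, against 5.87, 0, 0 and 0 CPM in WT animals 1 to 4. Every APP animal lay above every WT animal, and the difference did not pass (edgeR adjusted p = 0.519).

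Energy metabolism gave no call either. Of 19 glycolysis and hypoxia genes 0 were called, and hexokinase 2 (Hk2) averaged 558 ± 227 CPM in APP and 538 ± 103 CPM in WT animals. Slc2a1, the glucose transporter GLUT1, had no count in APP cells and 204 counts in 4 WT cells. Of 25 nuclear genes of oxidative phosphorylation 0 were called, 16 had a negative log2 fold change and the median was -0.14. Ndufa6, a complex I subunit, stood at 8.52, 20.9, 64.5 and 42.8 CPM in APP animals 1 to 4, against 86.99, 151, 174 and 177 CPM in WT animals 1 to 4. All APP animals lay below the WT animals (log2 fold change -2.11 ± 0.58, edgeR adjusted p = 0.519), while Cox7c of complex IV overlapped with 348 ± 107 CPM in APP and 380.3 ± 142 CPM in WT animals. The 13 protein-coding genes of the mitochondrial genome had a median of -0.0072, and mt-Cytb an interval of -0.22 to 0.43. The 81 tested ribosomal protein genes had a median of -0.06, with 0 called.

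The remaining lists also had 0 called genes. Purinergic sensing (7 tested) had a median log2 fold change of 0.03. Chromatin regulators (22 genes) had a median of 0.07, and the histone methyltransferase gene Kmt2d an interval of -0.05 to 0.41. Actin and motility genes (22) had a median of -0.04. Actb had an interval of -0.04 to 0.53, and Arpc2, an Arp2/3 subunit, a log2 fold change of 0.71 ± 0.26 (edgeR adjusted p = 0.519). Mouse orthologues of Alzheimer risk genes (22) had a median of -0.03. Among them Adam10, the main alpha-secretase, stood at 3211, 2944, 2909.6 and 3364 CPM in APP animals 1 to 4, against 2829, 2417, 2219 and 2127 CPM in WT animals 1 to 4. All APP animals lay above the WT animals, with a log2 fold change of 0.37 ± 0.14 (unadjusted p = 0.012, edgeR adjusted p = 0.519). Picalm, a clathrin adaptor, had one of 0.19 ± 0.15. Cell cycle genes summed to 69.3 to 224 CPM in APP animals and 81.7 to 157 CPM in WT animals. Of 16 tested, 3 had an unadjusted p under 0.05, all higher in APP, beside 9.09% of all genes tested. Mki67, a marker of dividing cells, had 43 counts in 2 APP cells and 0 in WT cells.

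The genes with the smallest unadjusted p among those at 50 CPM or more with animals that did not overlap are named next, 10 in each direction, and 0 of them passed the main test. Those above WT included genes of high level. Dusp3, a dual-specificity phosphatase, stood at 2127, 2673, 2036 and 2254 CPM in APP animals 1 to 4, against 1845, 1869, 1427 and 1230.2 CPM in WT animals 1 to 4. APP animal 3 and WT animal 2 were the closest pair, and the log2 fold change was 0.51 ± 0.16 (edgeR adjusted p = 0.519). Mcmbp, which binds the MCM replication complex, stood at 2188, 1941, 1579 and 2397 CPM in APP animals 1 to 4, against 1228, 1387, 1427 and 1279.6 CPM in WT animals 1 to 4. Its log2 fold change was 0.61 ± 0.18, again without overlap. Ppm1g, a nuclear phosphatase, stood at 440.1, 416, 680.4 and 677 CPM in APP animals 1 to 4, against 338, 279.8, 202 and 285 CPM in WT animals 1 to 4. APP animals 3 and 4 were highest, and the log2 fold change was 1.002 ± 0.29 (DESeq2 adjusted p = 0.0456).

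Gdi2, which recycles Rab GTPases, had a log2 fold change of 0.53 ± 0.18, and Pnisr, a nuclear speckle protein, 0.72 ± 0.22. Snx3, a sorting nexin of endosomes, averaged 240.3 ± 107 CPM in APP and 99.4 ± 29.3 CPM in WT animals. Fnbp4, a formin-binding protein, averaged 208 ± 75.5 CPM in APP and 82.5 ± 29.4 CPM in WT animals. Dpagt1, the enzyme that starts N-glycan synthesis, stood at 54.6, 95.1, 92.9 and 59.1 CPM in APP animals 1 to 4, against 13.7, 23.97, 11.03 and 1.83 CPM in WT animals 1 to 4. The lowest APP animal lay above 50 CPM and every WT animal below it. Rsu1, an adhesion protein, averaged 107 ± 44.1 CPM in APP and 10.5 ± 12.2 CPM in WT animals.

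Among those below WT, Med4, a Mediator subunit, stood at 0, 0, 0.451 and 0 CPM in APP animals 1 to 4, against 56.8, 96.8, 18.9 and 40.8 CPM in WT animals 1 to 4. It had counts in every WT animal and 1 count in all APP cells. It did not pass the main test (edgeR adjusted p = 0.444) and passed with DESeq2 (adjusted p = 6.22e-07) and limma voom (adjusted p = 0.00511). Tbc1d16, a Rab GTPase-activating protein, stood at 5.05, 0.72, 0 and 9.17 CPM in APP animals 1 to 4, against 95.1, 39.7, 103 and 84.7 CPM in WT animals 1 to 4. The APP animals were near 0 and every WT animal lay above them. Pgd, an enzyme of the pentose phosphate pathway, stood at 21.1, 15.6, 2.71 and 3.06 CPM in APP animals 1 to 4, against 40.6, 64.1, 217 and 37.8 CPM in WT animals 1 to 4. WT animal 3 stood above the other WT animals.

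Ptpn1, the phosphatase PTP1B, was the most evenly lower of the rest. It stood at 204, 249.5, 245 and 171 CPM in APP animals 1 to 4, against 447, 352, 401 and 396 CPM in WT animals 1 to 4. The groups did not overlap (log2 fold change -0.87 ± 0.30, edgeR adjusted p = 0.519). Nsd1, a histone methyltransferase, stood at 380.2, 323, 432 and 472 CPM in APP animals 1 to 4, against 684, 481, 755 and 674 CPM in WT animals 1 to 4. The highest APP animal was close to the lowest WT animal, and the log2 fold change was -0.69 ± 0.25. Cd302, a lectin receptor, averaged 50.5 ± 30.5 CPM in APP and 164 ± 39.4 CPM in WT animals. The kinase gene Map3k2, the mRNA export factor gene Gle1 and the splicing gene Snrpg averaged 2.61 ± 3.02 CPM in APP and 52.5 ± 33.9 CPM in WT animals for Map3k2, 3.59 ± 4.72 CPM in APP and 75.3 ± 47.5 CPM in WT animals for Gle1 and 13.1 ± 5.3 CPM in APP and 73.8 ± 51.01 CPM in WT animals for Snrpg.

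The genotype difference was then compared between cortex and hippocampus. The interaction, cortical minus hippocampal log2 fold change, passed for 150 of 14892 genes (1.01%), 119 positive and 31 negative (edgeR adjusted p under 0.05). That fit has no term for the animal, and the titles give cortex and hippocampus of the same animals. With the animal as a block in a fit of the 16 CD11c-negative sums, added after the data had been seen, it passed for 90 of 11367 genes, 88 positive and 2 negative, of which 88 were among the 150. The same 16 sums without the block gave 113. The cortical side was small for the 119 positive genes, with a median log2 fold change of 0.27 in cortex and -1.16 in hippocampus. Of the 150 genes, 130 were also called in hippocampus alone, where 226 genes passed, 49 higher and 177 lower in APP. Among the 150 genes, 103 were at 500 CPM or more. The 31 negative genes had medians of -2.50 in cortex and 7.22 in hippocampus. Most of the negative genes averaged below 50 CPM in cortex, and fitted sizes against groups at or near 0 are no measure of the fold.

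Kmt2d had log2 fold changes of 0.18 ± 0.11 in cortex and -1.06 ± 0.11 in hippocampus (interaction 1.24 ± 0.16, edgeR adjusted p = 0.00038). For Skil they were 0.44 ± 0.16 and -1.10 ± 0.16 (interaction adjusted p = 0.000873 by edgeR), for Abcg1 0.31 ± 0.16 and -1.07 ± 0.16 (0.00122) and for Adam10 0.37 ± 0.14 and -0.84 ± 0.14 (0.00122). Mcmbp and Dusp3, which had cortical animals without overlap, had -1.16 ± 0.18 and -0.93 ± 0.16 in hippocampus, with edgeR adjusted p = 0.000873 and 0.0011 for the interaction. Gm2a, Insig1, Bhlhe41, Ppm1g, Gdi2 and Picalm passed in the same direction. For all of these genes the hippocampal value was negative. With the animal as a block Kmt2d, Skil, Abcg1, Adam10, Mcmbp, Dusp3, Gm2a and Bhlhe41 passed, whereas Ppm1g (edgeR adjusted p = 0.0666), Gdi2 (0.0557), Insig1 (0.108) and Picalm (0.153) did not.

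Cells of the hippocampal groups differed in how many genes were detected. At 5000 counts a cell, detected genes averaged 621 ± 31.1 in APP and 436 ± 38.1 in WT hippocampus, and 549 ± 89.1 in APP and 591 ± 62.5 in WT cortex (SD, n = 4 each). Of the 337 genes at 500 CPM or more in cortex, 269 had a negative log2 fold change in hippocampus, with a median of -0.81. In a fit with detected genes per cell as covariate, the interaction passed for 12 genes, all of them among the 150. When cells with at least 5 counts of a gene were counted in place of CPM, 307 genes passed, 6 positive and 301 negative, and of the 120 interaction genes in that fit 107 kept their sign.

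**Figure D5:**
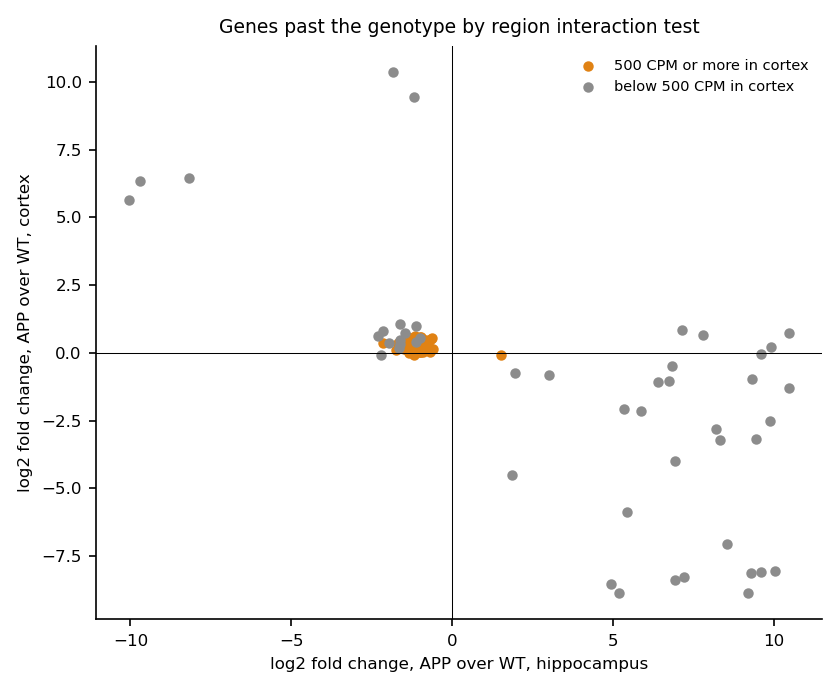
Log2 fold change of APP over WT in hippocampus (horizontal) and cortex (vertical) for the 150 genes past the interaction test, with genes at 500 CPM or more in cortex in orange. Most lie left of 0 and close to 0 on the cortical axis, with medians of -1.16 and 0.27 for the 119 positive genes.

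The cells themselves did not differ beyond the spread between animals in 4 measures. Detected genes per cell at 5000 counts averaged 549 ± 89.1 in APP and 591 ± 62.5 in WT animals (exact two-sided permutation test, p = 0.429). APP animals 1 and 2 were lowest, at 478 and 470.1 genes, and WT animal 2 was highest at 657. The mitochondrial share of counts was 1.2 ± 0.296% in APP and 1.12 ± 0.29% in WT animals (exact permutation p = 0.8). Median counts per cell averaged 19312 ± 6159 in APP and 20798 ± 3682 in WT animals (exact permutation p = 0.743). The fourth measure was the Apoe share given above, and each had a Benjamini-Hochberg adjusted p of 0.8. With 4 animals against 4 the smallest p this test can give is 0.0286.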

How the data were processed

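Smart-seq2-based libraries of sorted single cells were made in 384-well plates and sequenced on an Illumina NextSeq 500, per the labels' protocols. Per the submitters' processing notes, the authors used UMI-tools 0.5.3, HISAT2 2.1.0 and featureCounts 1.6.0 with GRCm38 (mm10). The authors deposited raw counts for each gene and cell barcode and did not normalize them. Whether reads with the same molecular identifier were merged is not stated in the sources used here. Over the series, 88.8% of counts lay in entries of 20 or more, so the counts may be reads. Intervals and floors do not allow for that, and floors leave out the spread between animals. Symbols and positions came from GENCODE vM21.

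Barcodes with fewer than 200 genes or over 20% mitochondrial counts were left out, here 1 barcode. Doublets were not called. Counts were summed per animal, region and gate by the titles, and 14892 genes were tested with edgeR 4.0.16 (R 4.3.3, limma 3.58.1): TMM, filterByExpr, 1 mean for each of 6 groups over 23 sums, 17 residual degrees of freedom, quasi-likelihood test, Benjamini-Hochberg adjustment at 0.05. The scripts were tested on simulated data. Titles number the animals, but nothing states how they were bred or handled, so p-values measure the spread between these samples. For the interaction, cortex and hippocampus of 1 animal are paired by the titles, though their deviations from the group means correlated only at -0.0566 to 0.0464, and a fit with the animal as block was added after the data had been seen. Cell measures used exact permutation tests over 70 arrangements (SciPy 1.17.1). A fold against a group at 0, called a bound, is set against 3 counts over that group. It takes counts as independent, though counts of a gene can lie together in 1 cell, so the true limit may be lower.

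Named genes were App, Prnp and Itgax, the 10 genes of smallest unadjusted p in each direction (at least 50 CPM in the higher group, animals not overlapping, predicted, mitochondrial and ribosomal genes left out), and up to 4 of highest level and 2 of smallest p per list. Values are printed for a part of these. The comparison, the 24 gene lists and the 10 marker lists were chosen with earlier results of these data known. Alternatives were other scalings and gene filters, DESeq2 1.42.0, limma voom, mean CPM per cell, numbers of cells with at least 5 counts, genes per cell as a covariate, stricter cell filters, other thinning depths, the tagged genotype, a replicate block and leaving out each animal. Results of some named genes are not reported here.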

Additional observations from a re-analysis of the deposited data

Results flagged for a closer look

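Among the groups of 4 animals examined, 33 of 248 had 1 animal far from the other 3 by Dixon's criterion at its 95% critical value, where chance gives about 1 in 20. In 8 of the 33 the other 3 animals were at 0, where any value passes and that rate does not apply, which leaves 25. APP animal 4, the shallowest sample with 1037425 counts, was such an animal for App (332.2 CPM), Ctsd (1923), Ctss (3305), H2-Ab1 (299.6), H2-Eb1 (111.1), Mki67 (42.8) and Cst7 (35.67). APP animal 2 was one for C1qb (3015 CPM), and APP animal 3 for Med4 (0.4512). WT animal 1 stood apart for C1qc (3842 CPM), Clec7a (44.75), Jund (272.1), Ccl2 (5.314) and Scap (5.874), and WT animal 2 for Ifi27l2a and Plin2 (0.4359 each). WT animal 3 stood apart for Pgd (217.1 CPM), H2-Ab1 (100.9), Axl (1.576) and Nfkbia (0), and WT animal 4 for Cadm1 (251 CPM) and Lrp1 (252.3). Many of these rest on 1 high cell or a few counts.

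Summed lists gave the same kind of single animals. APP animal 3 was low for TGF-beta signalling (4435 CPM) and high for lymphocyte markers (4.92), APP animal 2 was low for ribosomal protein genes (10785) and high for red cell genes (280.3), and APP animal 1 was high for markers of border-associated macrophages (20.75). WT animal 1 was high for actin and motility genes (19931 CPM) and monocyte markers (11.87), WT animal 2 for the mitochondrial genome (13067) and lymphocyte markers (21), and WT animal 3 for border-associated macrophage markers (55.66) and red cell genes (65.5).

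The genotype difference of 17 named genes differed between cortex and hippocampus by the interaction test (edgeR adjusted p under 0.05). Cortical minus hippocampal log2 fold changes were 2.117 for Ppm1g, 1.764 for Mcmbp, 1.446 for Dusp3, 1.169 for Gdi2, 1.111 for Bhlhe41, 1.534 for Skil, 1.394 for Gm2a, 1.381 for Abcg1, 2.152 for Insig1, 1.245 for Kmt2d, 1.211 for Adam10 and 0.8814 for Picalm. They were 12.24 for Lpl, 14.66 for Ifi27l2a, 16.05 for Ccl2, -6.34 for Tbc1d16 and -14.04 for Slc2a1, genes with groups at or near 0, where the fitted size depends on the prior count and is no measure of the fold. The part of detected genes per cell, which differed between the hippocampal groups, was examined only through the covariate fit, in which 12 interaction genes passed. With the animal as a block, 8 of the 17 genes passed. Lpl (edgeR adjusted p = 0.408), Tbc1d16 (0.271), Ccl2 (0.17) and Slc2a1 (0.514) were among those that did not, and Ifi27l2a was not in that fit.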

How the results depend on the processing

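The count of 0 genes called in cortex held with other scalings, a stricter gene filter, the 8 animals alone, stricter cell filters, genes per cell as a covariate, numbers of cells with at least 5 counts, the tagged genotype and without any 1 animal. It was 1 with no gene filter, 245 with DESeq2, 19 with limma voom and 4 (1 higher and 3 lower) with mean CPM per cell. By list, the low-baseline disease-associated and the lipid handling genes each had 1 called gene with no gene filter, limma voom and mean CPM per cell. DESeq2 called 1 low-baseline gene, 3 lipid handling genes, 5 interferon genes, 3 cell cycle genes and 2 cholesterol synthesis genes. It also called 1 gene each among phagocytic receptors, complement, MHC class I, MHC class II, cytokines, immediate early genes, glycolysis, oxidative phosphorylation and red cell markers. The cause of these differences between tools was not tested.

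The interaction passed for 798 genes with DESeq2 (323 positive and 475 negative), 233 with limma voom, 12 with the covariate, 307 with numbers of cells and 90 with the animal as replicate block, against 150, and for 118 to 163 without 1 animal. Counts per cell turned from -1485.5 (APP minus WT) to 475 in cells with at least 500 genes, and ran from -3704.8 to 985.42 without 1 animal. The mitochondrial share ran from -0.0163 to 0.208 percentage points. The Apoe share at 5000 counts was 18.02 points higher in APP and 7.21 points higher without APP animal 4.

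Of 84 genes with printed values, 41 kept the sign of their fold change in every alternative examined for single genes. The other 43 changed it at least once. The tagged genotype was not among those alternatives. The main test called 0 genes, so whether a called gene changed its sign could not be asked. Titles number the animals 1 to 4 in both genotypes. Same-numbered animals correlated at -0.0605 to 0.0295 in their deviations. Cortex and hippocampus of 1 animal, paired by the titles, gave -0.0566 to 0.0464, so such values cannot tell whether the numbers pair animals. The fit with a replicate block called 0 of 9190 genes. Genes below 50 CPM had a median standard error of 1.87, in which depth and the spread between animals were not separated.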
